A study of Danio rerio with 6 samples.

Results

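The long intergenic non-coding RNAs (lincRNAs) described here are the 8 of 1315 listed lincRNAs whose genomic span lies over a piRNA cluster, and they fall in 7 of the 171 clusters of the same series. They were chosen by position. The start and end of a lincRNA had to overlap the start and end of a cluster in the coordinates of both experimental groups. Clusters were predicted from the reads of these libraries, so the choice is not independent of the counts. A ninth lincRNA, ENSDART00000159648.2 on chromosome 7, touched a cluster by 10 bp in the F1-γ coordinates alone, was not counted among the 8 and was too low for the test, with 104, 89 and 67 counts in F1-γ and 78, 107 and 67 counts in F1-C. The ID ENSDART00000155833.2 belongs to si:dkey-30f11.2 in the annotation used by the study, and the other 7 are given here by their transcript IDs.

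Small RNA was sequenced from zebrafish embryos of the AB wild type strain at 50% epiboly, 5.5 h post fertilization (hpf), in 2 groups of 3 libraries, each from a pool of 100 embryos. F1-γ embryos had parents exposed to gamma radiation at 8.7 mGy/h up to 5.2 Gy in all and bred 1 year after the exposure, and F1-C embryos had non-exposed control parents. The embryos themselves were not irradiated, and each library is a whole-embryo pool, so that fewer cells of a type and less RNA per cell cannot be told apart in any value below. The methods of the study describe 3 replicates of parents in each group and a pool of embryos from every replicate, so the p-values measure the spread between such pools.

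piRNAs are small RNAs that are bound by Piwi proteins and silence transposable elements, chiefly in the germline. They are cut from long precursor transcripts, and their genomic sources form piRNA clusters, which are dense in transposon remnants and give piRNAs from the plus strand, the minus strand or both. In zebrafish the Piwi proteins Piwil1 and Piwil2 act in the germ cells, and maternal piRNAs are passed to the embryo. lincRNAs are transcripts without a protein product that are annotated outside protein-coding genes, and the sources used here give no function for the 8. A small RNA library does not measure the long transcript: a lincRNA count is the number of short reads that lie on its span, whatever molecule they were cut from. The lincRNA counts and the cluster counts were made by different steps from sets of reads that need not be the same: the piRNA analysis was run on reads at known piRNA loci and on reads without an annotation. The question for each lincRNA was whether its count moved with that of its cluster, library by library.

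The totals were 124348 to 131439 counts in the F1-γ libraries and 96906 to 129490 counts in the F1-C libraries for lincRNAs, and 611701 to 810056 counts in F1-γ and 469295 to 604146 counts in F1-C for piRNA clusters. The largest single difference between the lincRNA tables of the groups was in 1 gene, ENSDART00000151198.3, which took 1.11% ± 0.461 of the lincRNA counts in F1-γ and 17.1% ± 2.44 in F1-C (SD, n = 3 each). Levels are given as CPM, the counts of a feature per 1000000 counts of the tested features of its class, after TMM scaling (trimmed mean of M-values), which sets most features of a class as unchanged. Log2 fold changes (log2 FC) are F1-γ against F1-C. They come from the quasi-likelihood test of edgeR, with p-values adjusted by Benjamini-Hochberg over the 125 lincRNAs with enough counts or over all 171 clusters. A call needed both an adjusted p under 0.05 and a log2 FC beyond 0.6 in either direction. All 8 lincRNAs passed the count minimum, with more than 100 counts in all 6 libraries and between 286 and 5566 counts in each.

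The 8 lincRNAs lie on 5 chromosomes, with 4 on each strand. On chromosome 3, ENSDART00000154375.2 runs from 49693590 to 49713848 on the minus strand, and its cluster, which gave piRNAs from both strands, covers 43.6% of that span in the F1-γ coordinates (49705021 to 49717024) and 43.7% in the F1-C coordinates (49705003 to 49716020). On chromosome 25, ENSDART00000150672.2 runs from 25801547 to 25817613 on the minus strand and reaches out of its plus-strand cluster in the same way, with 46.5% of its span inside in both groups (25800149 to 25809023 in F1-γ, 25801015 to 25809024 in F1-C). These are the 2 longest of the 8, at 20.3 kb and 16.1 kb.

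The other 6 lie wholly inside their cluster in both groups. On chromosome 17, ENSDART00000155690.2 (49487729 to 49494832, minus strand) and ENSDART00000156468.2 (49497206 to 49501209, plus strand) share 1 minus-strand cluster, which is the longest of the 7 at 35.6 kb in F1-γ (49474286 to 49509859) and 35.2 kb in F1-C (49474168 to 49509396). On chromosome 6, ENSDART00000155833.2 (15811680 to 15813165, plus strand) lies in a minus-strand cluster. The bounds of that cluster differed most between the groups, with 5.76 kb in F1-γ (15811615 to 15817372) and 10.6 kb in F1-C (15809092 to 15819688), so that the lincRNA starts 0.065 kb from the edge of the cluster in F1-γ and 2.59 kb from it in F1-C.

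The remaining 3 lie on chromosome 4, which carries 128 of the listed lincRNAs and 49 of the clusters. ENSDART00000194589.1 (44767885 to 44769009, plus strand) takes 3.44% of a minus-strand cluster of 32.7 kb (44742209 to 44774933 in F1-γ, 44743368 to 44776019 in F1-C). ENSDART00000194944.1 (48698458 to 48699426, minus strand) takes 5.14% of a plus-strand cluster of 18.8 kb in F1-γ (48691084 to 48709930) and 5.70% of its 17.0 kb in F1-C (48690027 to 48707018). ENSDART00000194155.1 (48807299 to 48808732, plus strand) lies in a cluster that gave piRNAs from both strands, 7.88 kb long in F1-γ (48805056 to 48812939) and 7.34 kb in F1-C (48805047 to 48812389).

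The annotated strand of the lincRNA was opposite to that of the cluster in 5 of the 8, the same only in ENSDART00000155690.2, and could not be set against a single strand in the 2 clusters that gave piRNAs from both. In the F1-C coordinates, 84 of all 171 clusters were minus-strand, 44 plus-strand and 43 gave piRNAs from both. Whether lincRNA reads were counted by strand is not given in the sources used here, so a short RNA from the strand opposite to the lincRNA may be part of its count.

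**Figure D1:**
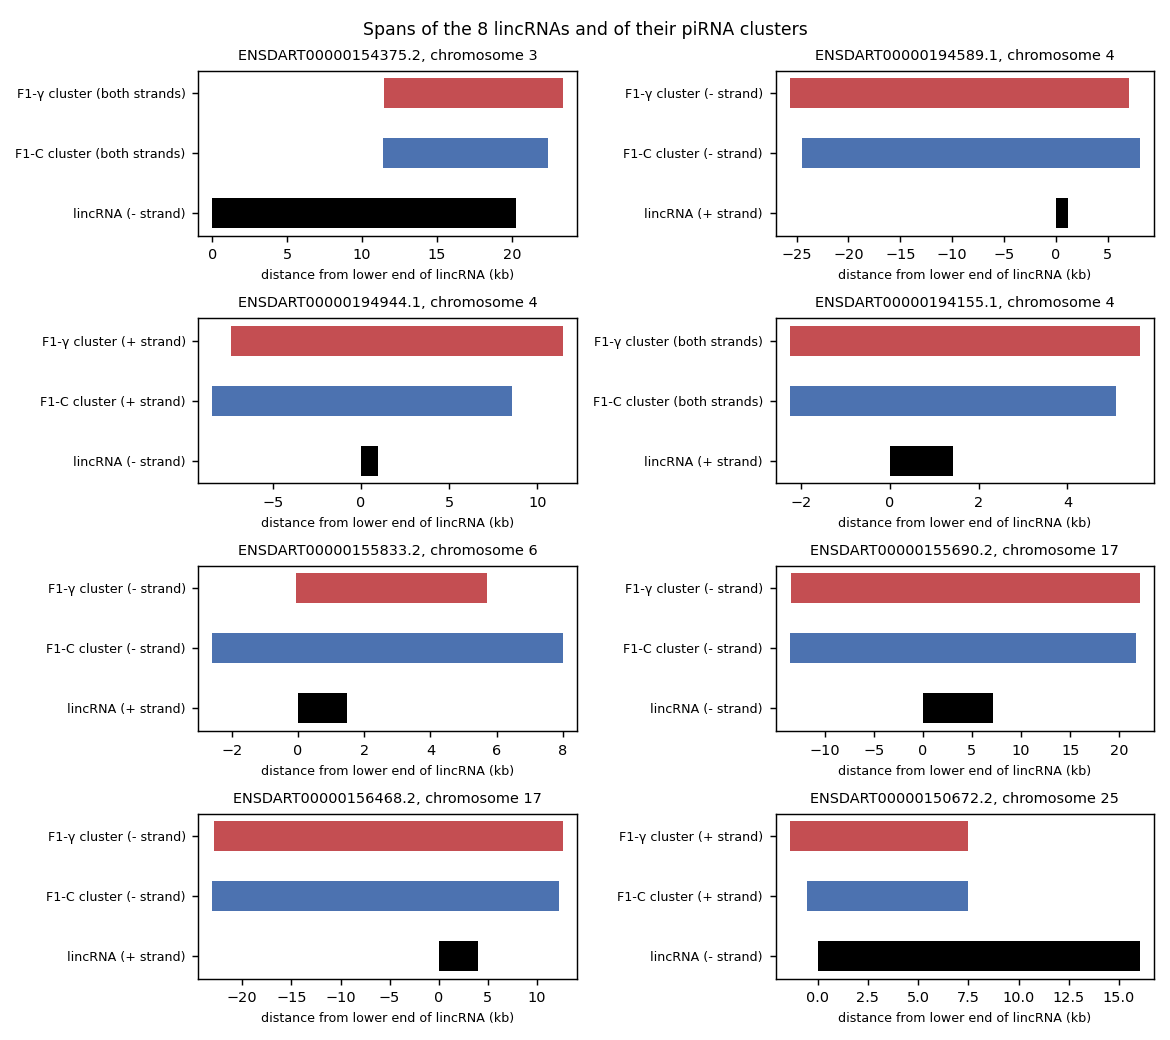
Position of the 8 lincRNAs relative to their piRNA cluster, in kb from the lower end of the lincRNA. Each panel has the cluster in the F1-γ coordinates at the top, the cluster in the F1-C coordinates under it and the lincRNA at the bottom. ENSDART00000154375.2 and ENSDART00000150672.2 reach beyond the cluster, and the chromosome 6 cluster of ENSDART00000155833.2 spans 5.76 kb in F1-γ and 10.6 kb in F1-C.

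Per length of genomic span, the lincRNA table held more counts on the 3 chromosome 4 lincRNAs than the cluster table held on the clusters around them. The 2 tables count partly different reads, so such a ratio sets a count of one table against a count of the other and is not a density on 1 scale. ENSDART00000194944.1, the shortest of the 8, held 5299 ± 407 counts per kb in F1-γ and 4508 ± 297 in F1-C, while its whole cluster held 671 ± 284 counts per kb in F1-γ and 693 ± 72.5 in F1-C (SD, n = 3 each). ENSDART00000194589.1 held 4382 ± 565 counts per kb in F1-γ and 3762 ± 440 in F1-C, against 276 ± 192 and 388 ± 55.0 over its cluster in F1-γ and F1-C. ENSDART00000194155.1 held 1447 ± 33.2 counts per kb in F1-γ and 973 ± 108 in F1-C, against 243 ± 36.0 and 194 ± 38.5 over its cluster. The count per kb of these 3 lincRNAs was above that of their cluster in every library, on average by 31.7-, 8.58- and 6.07-fold in F1-γ and by 9.93-, 6.58- and 5.17-fold in F1-C for ENSDART00000194589.1, ENSDART00000194944.1 and ENSDART00000194155.1. The 31.7-fold mean has an SD of 35.7 and rests on F1-γ replicate 1, in which the cluster count was low. From the same reads, a lincRNA wholly inside its cluster could reach at most the ratio of their lengths. That ratio is 5.50 in F1-γ and 5.12 in F1-C for ENSDART00000194155.1, below the means given for it, and 29.1 in F1-γ for ENSDART00000194589.1.

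The opposite order was seen on chromosomes 17 and 25. ENSDART00000155690.2 and ENSDART00000156468.2 held 299 ± 13.7 and 201 ± 12.0 counts per kb in F1-γ, and 220 ± 37.7 and 135 ± 27.9 counts per kb in F1-C, below the 510 ± 100 counts per kb in F1-γ and 369 ± 53.0 in F1-C of their shared cluster. ENSDART00000150672.2 held 114 ± 10.3 counts per kb in F1-γ and 75.2 ± 8.07 in F1-C, against 182 ± 11.7 and 141 ± 16.7 over its cluster in F1-γ and F1-C. These 3 were below their cluster in counts per kb in every library.

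The counts per kb of ENSDART00000154375.2 and ENSDART00000155833.2 were close to those of their clusters. On chromosome 3 the ratio of lincRNA to cluster counts per kb was 1.01 ± 0.173 in F1-γ and 0.910 ± 0.342 in F1-C, and on chromosome 6 it was 1.18 ± 0.176 in F1-γ and 1.38 ± 0.521 in F1-C (SD, n = 3 each). Among the 125 lincRNAs tested, ranked by mean CPM per kb, ENSDART00000194944.1 was the second, ENSDART00000194589.1 the third, ENSDART00000194155.1 rank 10 and ENSDART00000155833.2 rank 13, while the other 4 had ranks 26 to 47. The median of the 8 was 3360 CPM per kb, beside 1678 for the 15 tested lincRNAs that lie within 100 kb of a cluster without touching it and 406 for all 125. The 8 are also shorter than all 125, with a median span of 2.75 kb beside 6.44 kb, but the 15 near a cluster are short too, at 2.34 kb. Spans count introns, so that a long lincRNA with few exons has a low value per kb. The clusters were predicted from the reads of these same libraries. A lincRNA over a cluster was therefore picked where reads are dense, and the higher median of the 8 is not independent of that choice.

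**Figure D2:**
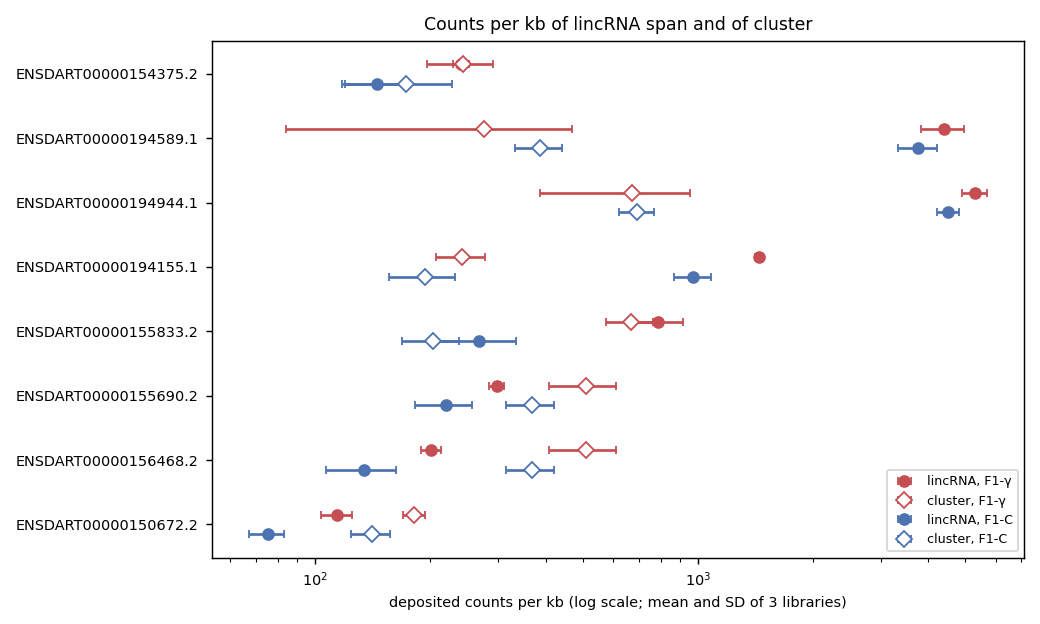
Counts per kb of genomic span of each lincRNA and of its whole piRNA cluster, on a log axis. Filled circles are lincRNAs and open diamonds clusters, each the mean of 3 libraries with a bar of 1 SD, with F1-γ above F1-C. The means of the 3 chromosome 4 lincRNAs lie far to the right of their cluster, and those of ENSDART00000155690.2, ENSDART00000156468.2 and ENSDART00000150672.2 to its left.

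Of the 8 lincRNAs, 1 was called higher in F1-γ and none lower, while among all 125 tested 14.4% were called, 3.2% higher and 11.2% lower. At an adjusted p below 0.05 without the fold threshold, 1 was higher and 2 were lower, where 36.8% of all 125 had such a p, 16% higher and 20.8% lower. Among the 125 tested, 4 were called higher and 14 lower. The shares among the 8 rest on so few lincRNAs that they say little about lincRNAs in clusters as a class.

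The lincRNA called was ENSDART00000155833.2 (si:dkey-30f11.2), on chromosome 6. It had 1020, 1107 and 1380 counts in the F1-γ libraries and 454, 458 and 286 counts in the F1-C libraries. As CPM these were 7374, 8462 and 10396 in F1-γ and 4943, 4477 and 3604 in F1-C, so that every F1-γ library lay above every F1-C library on both scales. The mean was 8744 ± 1530 CPM in F1-γ and 4341 ± 680 CPM in F1-C (SD, n = 3 each), with a log2 FC of 1.01 (SE 0.161, adjusted p = 0.00131, edgeR). This was the highest log2 FC of all 125 lincRNAs tested and rank 10 by p. Under each of 15 alternatives, leaving out any 1 library included, the lincRNA was called, with a log2 FC of 0.89 to 1.39 and an adjusted p of 1.81e-11 to 0.0289.

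On chromosome 4, ENSDART00000194589.1 fell by 0.34 on the log2 scale (SE 0.113, adjusted p = 0.0377, edgeR) and ENSDART00000194944.1 fell by 0.33 (SE 0.110, adjusted p = 0.0377), neither past the fold threshold. ENSDART00000194589.1 had 38888, 32130 and 39233 CPM in F1-γ and 48360, 44863 and 46210 CPM in F1-C, and ENSDART00000194944.1 had 40240, 38567 and 36099 CPM in F1-γ and 45355, 45928 and 53431 CPM in F1-C. All F1-γ libraries were below all F1-C libraries in both. These 2 have the highest counts per kb of the 8.

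The direction of both depends on the scale. The deposited counts of ENSDART00000194944.1 were 5566, 5045 and 4792 in F1-γ and 4166, 4698 and 4240 in F1-C, every F1-γ library the higher, and those of ENSDART00000194589.1 were 5379, 4203 and 5208 in F1-γ and 4442, 4589 and 3667 in F1-C, which overlap. With library totals in place of TMM factors, which moved the median log2 FC of all 125 lincRNAs to 0.41, the log2 FCs turned to 0.050 and 0.042 for ENSDART00000194944.1 and ENSDART00000194589.1. Both remained below that median. Over the alternatives the adjusted p of ENSDART00000194589.1 was between 0.0284 and 0.792, and that of ENSDART00000194944.1 between 0.0279 and 0.753.

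The other 5 did not pass the test. ENSDART00000154375.2 had 36756, 35417 and 37056 CPM in F1-γ and 29732, 34568 and 32474 CPM in F1-C, with no overlap between the groups and a log2 FC of 0.17 (SE 0.101, adjusted p = 0.190, edgeR). In ENSDART00000155690.2 the values were 16144, 15878 and 15473 CPM in F1-γ and 18203, 17186 and 15840 CPM in F1-C (log2 FC -0.11, adjusted p = 0.402, edgeR), and the lowest F1-C library lay between the F1-γ libraries. The difference between the groups of this lincRNA is within the spread of the F1-C libraries, and its log2 FC turned to 0.27 with library totals.

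ENSDART00000150672.2 had 11929, 15075 and 14185 CPM in F1-γ and 13402, 12944 and 13459 CPM in F1-C (log2 FC 0.049, adjusted p = 0.758, edgeR). ENSDART00000156468.2 had 6203, 6070 and 5755 CPM in F1-γ and 6717, 5758 and 5179 CPM in F1-C (log2 FC 0.030, adjusted p = 0.879, edgeR). ENSDART00000194155.1 had 14900, 16268 and 15338 CPM in F1-γ and 16613, 14039 and 15424 CPM in F1-C (log2 FC 0.014, adjusted p = 0.931, edgeR). In these 3 the groups overlapped, the means differed by less than the spread between libraries, and the sign of the log2 FC turned with upper-quartile normalization, to -0.021, -0.042 and -0.054 for ENSDART00000150672.2, ENSDART00000156468.2 and ENSDART00000194155.1.

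Of the 8, 4 did not overlap between the groups in CPM, 2 higher and 2 lower in F1-γ, where 48% of all 125 lincRNAs did not overlap, 24.8% higher and 23.2% lower. In the deposited counts, 7 of the 8 were higher in every F1-γ library, beside 69.6% of all 125. The median log2 FC was 0.022 for the 8 and 0.022 for all 125, and the median size of the change without its sign was 0.14 for the 8, 0.27 for the 15 lincRNAs near a cluster and 0.33 for all 125.

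**Figure D3:**
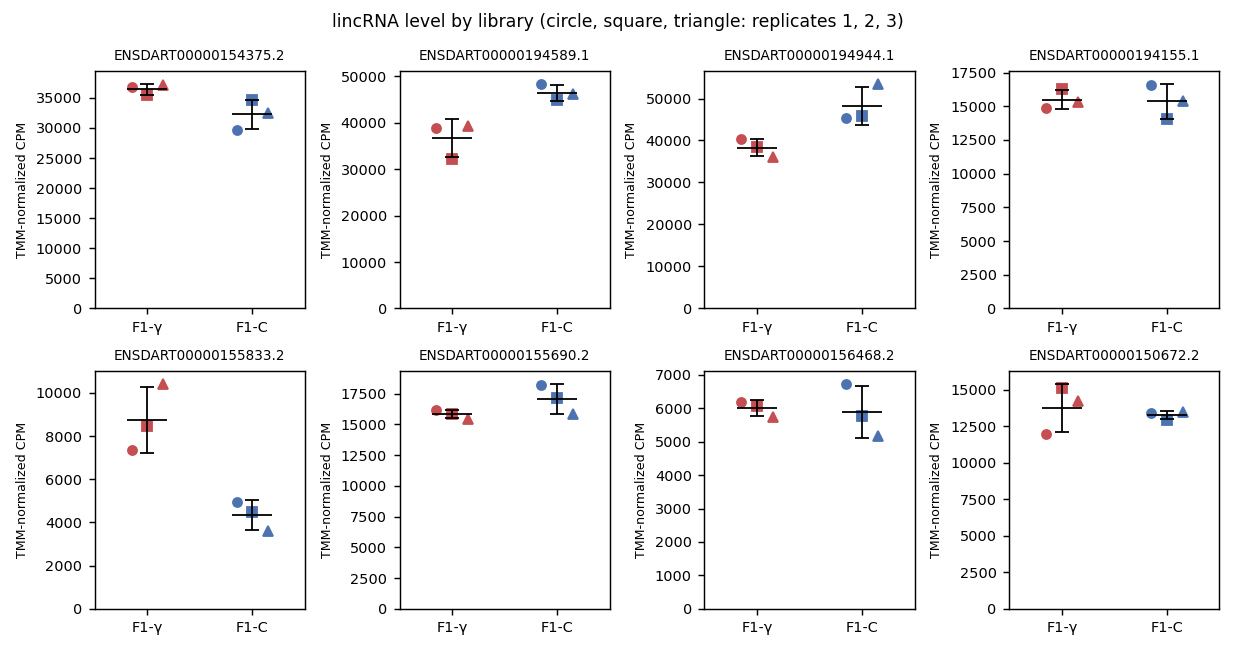
TMM-normalized CPM of the 8 lincRNAs in each library, F1-γ left of F1-C, with a point per library and the mean ± SD of each group (n = 3 each). ENSDART00000155833.2 averaged 8744 CPM in F1-γ and 4341 CPM in F1-C, and ENSDART00000194589.1 and ENSDART00000194944.1 lay lower in every F1-γ library than in every F1-C library.

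None of the 7 clusters that hold these lincRNAs was called, with DESeq2 and edgeR's exact test as well, in a table where 6.43% of the 171 clusters were, 2.34% higher and 4.09% lower, and 64 had an unadjusted p below 0.05 (edgeR). Among the 7, 1 had an unadjusted p below 0.05. Of the 7 clusters, 1 was higher and 1 lower in CPM without overlap between the groups, where 21.1% and 25.7% of all 171 were (46.8% together), and 2 were higher without overlap in the deposited counts, where 46.2% of all 171 were. The cluster with an unadjusted p below 0.05 was the chromosome 6 cluster of ENSDART00000155833.2, with 4808, 5359 and 5216 CPM in F1-γ and 3912, 3863 and 4113 CPM in F1-C, higher in every F1-γ library. Its log2 FC of 0.37 (SE 0.0768, adjusted p = 0.0336, edgeR) was under the fold threshold.

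The length of this cluster bears on that value, because the 5.76 kb of the F1-γ coordinates and the 10.6 kb of the F1-C coordinates were counted as the same feature. Per kb of its own coordinates it held 670 ± 94.8 counts in F1-γ and 203 ± 34.3 counts in F1-C (SD, n = 3 each). With the cluster length of each group as an offset the log2 FC was 1.25 (adjusted p = 0.000680, edgeR), past the threshold. With limma's voom on RPKM it was 1.30 (adjusted p = 0.000225), also past the threshold. Both settings apply a shift fixed by the bounds, which were predicted from the reads of each group. The 1.49 kb of the lincRNA, which are the same bases in both groups, held 787 ± 126 counts per kb in F1-γ and 269 ± 66.1 in F1-C.

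The clusters of the 2 lincRNAs that fell on chromosome 4 were lower in F1-γ on average but varied widely between its libraries. That of ENSDART00000194589.1 had 2568, 17259 and 17534 CPM in F1-γ and 23515, 23332 and 23229 CPM in F1-C, a log2 FC of -0.91 (SE 0.659, adjusted p = 0.369, edgeR). That of ENSDART00000194944.1 had 22521, 16177 and 11295 CPM in F1-γ and 22194, 22809 and 20514 CPM in F1-C, a log2 FC of -0.39 (SE 0.244, adjusted p = 0.293). F1-γ replicate 1 was very low in the first cluster. In the second it was the highest of the F1-γ libraries and lay within the range of the F1-C libraries, and F1-γ replicate 3 was the lowest. Without F1-γ replicate 1 the log2 FCs of the clusters were -0.43 (adjusted p = 0.00703) and -0.67 (adjusted p = 0.0373), the second past both thresholds. Those of the lincRNAs were then -0.36 (adjusted p = 0.0451) for ENSDART00000194589.1 and -0.34 (adjusted p = 0.0502) for ENSDART00000194944.1. Neither cluster passed without F1-γ replicate 2 or without F1-γ replicate 3. The first had -1.20 (adjusted p = 0.339) and -1.24 (adjusted p = 0.338), and the second -0.34 (adjusted p = 0.474) and -0.17 (adjusted p = 0.521, edgeR). The fall of the second cluster thus depended on which F1-γ library was left out.

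Summed within each library, these 2 clusters had 25089, 33437 and 28829 CPM in F1-γ and 45708, 46141 and 43743 CPM in F1-C, a mean of 29118 ± 4181 in F1-γ and 45198 ± 1278 in F1-C (SD, n = 3 each). The sum was formed after the single values had been seen, so it is given as a description with no test. Cluster counts are estimates in which reads with several loci were divided among them, and the part of that division in the low value of F1-γ replicate 1 was not tested.

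The other 4 clusters differed little between the groups. The log2 FC was 0.15 (SE 0.176, adjusted p = 0.607) on chromosome 3, -0.046 (SE 0.0945, adjusted p = 0.799) for the cluster of ENSDART00000194155.1 and 0.061 (SE 0.137, adjusted p = 0.814) on chromosome 25 (edgeR). The chromosome 17 cluster had 24897, 23226 and 23677 CPM in F1-γ and 24198, 23854 and 23816 CPM in F1-C, with a mean of 23933 ± 864 CPM in F1-γ and 23956 ± 210 CPM in F1-C (SD, n = 3 each). The lincRNAs inside it had a log2 FC of -0.11 and 0.030.

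**Figure D4:**
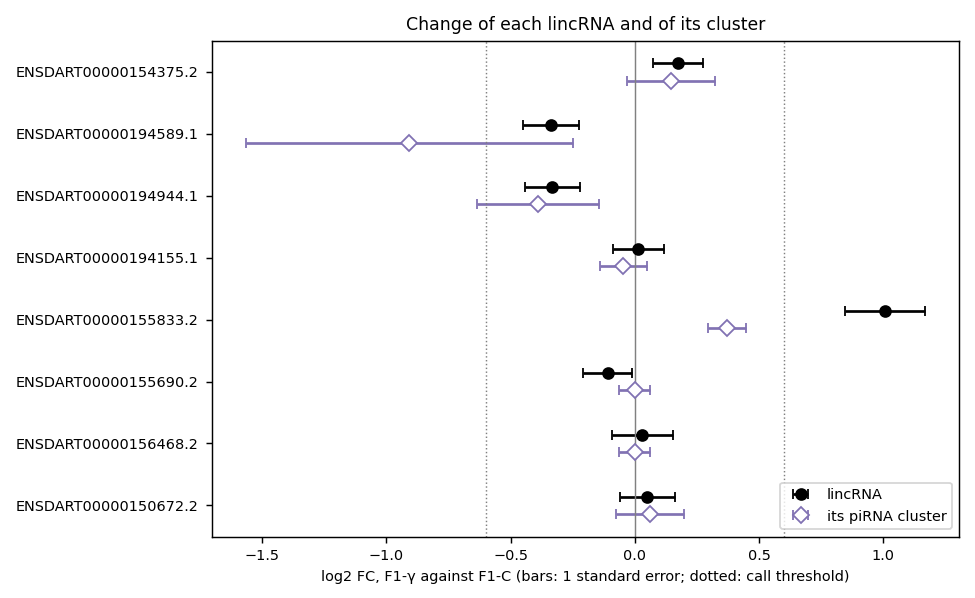
Log2 FC (F1-γ against F1-C, edgeR) of each lincRNA, as a filled circle, and of the piRNA cluster that holds it, as an open diamond, with bars of 1 SE and dotted lines at the fold threshold of 0.6 and -0.6. ENSDART00000155833.2 lies at 1.01 and its cluster at 0.37, and the widest bar is that of the cluster of ENSDART00000194589.1.

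Set beside their own clusters, 6 of the 8 lincRNAs had a log2 FC within 0.2 of that of the cluster, with lincRNA minus cluster differences between -0.11 and 0.060. The others were ENSDART00000194589.1, 0.57 above its cluster, and ENSDART00000155833.2, 0.64 above its cluster. Most of these changes were small, with a median size without sign of 0.14 for the 8 lincRNAs and 0.15 for the 7 clusters. Small changes can be close to each other wherever the features lie. The same count was not taken for other pairs of lincRNA and cluster, so whether the 6 go with a shared position was not tested. F1-γ replicate 1 decides which chromosome 4 pair is among the 6: without it the difference was 0.070 for ENSDART00000194589.1 and 0.33 for ENSDART00000194944.1. Both log2 FCs of a pair come from the same libraries but from tables scaled separately, so that the difference also holds the difference between the scales. With library totals in place of TMM factors, 0 of the 8 pairs were within 0.2, all 8 lincRNAs being above their cluster by 0.22 to 0.97.

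The ratio of the 2 deposited counts was also taken within each library. It is free of the TMM factors but carries the ratio of the totals of the 2 tables, which ran from 15.9 to 27.6 lincRNA counts per 100 cluster counts between libraries. For ENSDART00000155833.2 there were 25.4, 34.1 and 32.1 lincRNA counts per 100 cluster counts in F1-γ and 20.4, 26.1 and 11.6 in F1-C. The lowest F1-γ library lay below the highest F1-C library, and the log2 ratio was 0.72 higher in F1-γ (two-sided exact permutation test, p = 0.2). On CPM, with both tables scaled by TMM, the log2 difference was 0.64 and the groups did not overlap (exact permutation test, p = 0.1, the smallest possible). Per kb of cluster in the coordinates of each group the log2 difference was -0.16. That division shifts every F1-γ ratio by the same amount, which is set by the cluster bounds alone. It cannot show whether the shorter F1-γ cluster accounts for the higher ratio, which was not tested.

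For ENSDART00000194589.1 the ratio was 251, 40.2 and 36.0 lincRNA counts per 100 cluster counts in F1-γ and 33.2, 43.2 and 26.3 in F1-C. Its log2 difference of 1.09 (exact permutation test, p = 0.3) was 0.18 without F1-γ replicate 1. For ENSDART00000194944.1 it was 29.6, 51.4 and 51.4 in F1-γ and 32.9, 45.3 and 34.4 in F1-C, a log2 difference of 0.20 (p = 0.6, exact permutation test). The lincRNA count of ENSDART00000194589.1 in F1-γ replicate 1, at 5379, was the highest of its 6 libraries, while the count of the cluster that wholly contains it was the lowest, at 2147.

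A lincRNA wholly inside a cluster could hold at most the reads of that cluster if both tables counted the same reads in the same way. That was not so for ENSDART00000194155.1, with 95.8, 133 and 103 counts per 100 cluster counts in F1-γ and 92.4, 130 and 80.6 in F1-C, which exceeded its whole cluster in 3 of the 6 libraries while taking 18.2% of its length in F1-γ and 19.5% in F1-C. The same held for ENSDART00000194589.1 in F1-γ replicate 1. The 2 tables were made by different steps from partly different sets of reads, and which reads the lincRNA table holds that the cluster table does not was not tested. The groups did not differ in this ratio for ENSDART00000194155.1 beyond the spread between libraries (log2 difference 0.15, exact permutation test, p = 0.5).

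The lincRNAs that reach out of their cluster held more counts than it in all libraries but F1-C replicate 3. ENSDART00000154375.2 had 155, 204 and 152 counts per 100 cluster counts in F1-γ and 180, 223 and 99.2 in F1-C, and ENSDART00000150672.2 had 107, 125 and 109 in F1-γ and 109, 133 and 84.8 in F1-C. On chromosome 17 the ratio was 10.7, 14.7 and 10.5 in F1-γ and 12.1, 16.2 and 8.78 in F1-C for ENSDART00000155690.2, and 4.12, 5.64 and 3.91 in F1-γ and 4.48, 5.43 and 2.87 in F1-C for ENSDART00000156468.2. The groups overlapped in all 4, with log2 differences of -0.018 to 0.13 and exact permutation p of 0.8 to 1.

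The ratio moved from library to library in the same order for nearly all pairs. Replicate 2 had the highest ratio of its group in 8 of 8 pairs in F1-C and in 7 of 8 in F1-γ, and replicate 3 the lowest in 7 of 8 pairs in F1-C. The totals of the 2 tables did the same, with 16.2, 20.3 and 15.9 lincRNA counts per 100 cluster counts in F1-γ and 18.9, 27.6 and 16.0 in F1-C. The deposited ratios therefore carry a library-wide part that belongs to no single lincRNA. The ratio on CPM takes out the scale of the 2 tables in each library. The order of the libraries over the pairs was not counted on CPM, so a shared part may remain there.

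**Figure D5:**
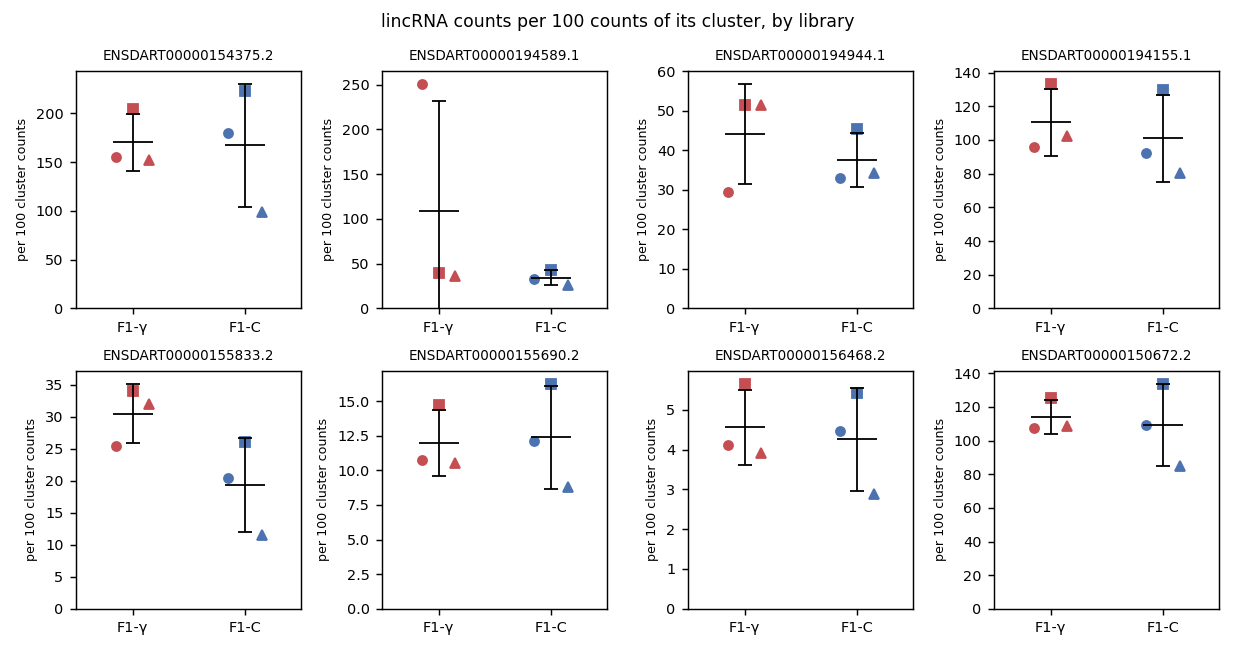
lincRNA counts per 100 counts of the piRNA cluster that holds it, in each library, F1-γ left of F1-C, with a point per library (circle, square and triangle for replicates 1, 2 and 3) and the mean ± SD of each group (n = 3 each; the axis starts at 0, which cuts the lower bar of ENSDART00000194589.1 in F1-γ). The groups overlap in all 8 panels, and the 251 counts per 100 of ENSDART00000194589.1 are those of F1-γ replicate 1.

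The SD over the 6 libraries of the log2 ratio of their CPM was set beside the same SD for every other cluster. This is a description over 6 libraries that share their depth and scaling. The ratio of ENSDART00000194155.1 to its own cluster was the third most constant of all 171, with an SD of 0.0635, that of ENSDART00000156468.2 was rank 6 (SD 0.119), ENSDART00000155690.2 rank 9 (SD 0.0851), ENSDART00000150672.2 rank 11 (SD 0.0936) and ENSDART00000155833.2 rank 17 (SD 0.412). For these 5 the own cluster was among the 20 most constant.

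The own cluster of the other 3 was further down the order. ENSDART00000154375.2 had rank 59 (SD 0.184), ENSDART00000194944.1 rank 100 (SD 0.303) and ENSDART00000194589.1 rank 168 (SD 1.19). The most constant cluster lay on another chromosome for 7 of the 8 and on chromosome 4 for ENSDART00000194155.1, with SDs between 0.0146 and 0.264. The median SD over all clusters was between 0.231 and 0.619, and it was highest for ENSDART00000155833.2, whose level differed most between the groups. The rank is therefore relative to the lincRNA: ENSDART00000155833.2 had a larger SD to its own cluster, at rank 17, than ENSDART00000154375.2 had at rank 59 or ENSDART00000194944.1 at rank 100. Clusters and lincRNAs that change little between the groups can have a near-constant ratio wherever they lie. Whether a rank near the top goes with a shared position was not tested.

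Together the 8 lincRNAs took 18.1%, 17.7% and 18.1% of the lincRNA counts in F1-γ and 15.5%, 14.2% and 15.2% in F1-C, so that each F1-γ library was higher than each F1-C library (p = 0.1 in the exact permutation test, the smallest possible). With ENSDART00000151198.3 left out of the totals, the share was 18.2% ± 0.293 in F1-γ and 18.0% ± 0.385 in F1-C (SD, n = 3 each; exact permutation test, p = 0.8), and the groups overlapped. The higher share in F1-γ was not there without that 1 lincRNA. On the TMM scale the direction turned, with 17.2%, 16.8% and 17.4% of the scaled counts in F1-γ and 18.3%, 17.98% and 18.6% in F1-C (p = 0.1, exact permutation test). The 7 clusters took 6.52%, 7.04% and 6.80% of the cluster counts in F1-γ and 8.03%, 7.94% and 8.02% in F1-C (p = 0.1, exact permutation test). Without the clusters of ENSDART00000194589.1 and ENSDART00000194944.1 the direction was opposite. The other 5 took 3.83% ± 0.101 in F1-γ and 3.55% ± 0.103 in F1-C (SD, n = 3 each). That split was made after the single values had been seen, so no test is given for it.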

How the data were processed

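Small RNA libraries of 3 F1-γ and 3 F1-C pools were used, each assigned to its group from its label. For F1-γ replicate 3 the title gives 2 replicate numbers, of which the last was used. According to the submitters' processing notes and the methods of the study, reads were trimmed (Trim Galore 0.3.7) and mapped to GRCz10. The files name no build, and the overlaps assume that both tables use it. The lincRNA table holds whole read counts that the authors deposited per annotated span. How reads with several loci were treated, and whether strand was used, is not given in the sources used here. The cluster table holds estimated counts, obtained by the authors after dividing reads with several loci among them and predicting clusters with proTRAC, with the columns of each group over the coordinates of that group. A cluster had to be found in all replicates of its group. Neither table was scaled to depth or length. The miRNA and snRNA tables were not used, and no column of another sample was present.

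A lincRNA was tested if its count was above 100 in 3 or more libraries (125 of 1315, of which 1086 had any count), and all 171 clusters were tested after rounding. The quasi-likelihood test of edgeR 4.0.16 (R 4.3.3) was run with TMM and without covariates, with Benjamini-Hochberg adjustment over each table. The design allowed for RPKM in the cluster table, which holds counts, so the count test was used. Log2 ratios of lincRNA to cluster counts used a pseudocount of 1 and the groups' ratios were set against each other by exact permutation (two-sided). The 8 lincRNAs, their clusters and the cluster nearest to each in ratio were the features described. The members and lists were chosen with earlier results of these data known.

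Depth limits the precision, as given by the totals above, and the errors are the spread between libraries. Replicates of a group differed by more than sampling noise, as chi-square over degrees of freedom was 9.74 to 19.8 for lincRNAs and 32.5 to 448 for clusters, and none were counted as 1 sample. On simulated counts with a log2 change of 1.5 in 31 of 125 lincRNAs, 100% of the changed lincRNAs were recovered. False calls averaged 0.15 over 20 simulations. For 43 of 171 clusters, 98.1% were recovered with 0.8 false calls. That change is larger than any log2 FC of the lincRNAs described or of their clusters, so recovery at their sizes was not simulated. Alternatives covered the normalization, DESeq2 1.42.0, edgeR's exact test, limma 3.58.1 (voom), the count minimum, library sizes, cluster length, a replicate block, the pseudocount and leaving out each library.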

Additional observations from a re-analysis of the deposited data

How the results depend on the processing

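The call of ENSDART00000155833.2 held under all 15 alternatives, and no other lincRNA of the 8 was called under any of them. In the main setting 3 passed the adjusted p alone, ENSDART00000155833.2 included. With library totals, ENSDART00000154375.2, ENSDART00000150672.2, ENSDART00000194155.1, ENSDART00000156468.2 and ENSDART00000155690.2 had adjusted p of 0.000826 to 0.0474 (edgeR). Their log2 FC was 0.27 to 0.56 there, under the fold threshold, where the median of all 125 was 0.41. The other counts of calls moved as follows. Of all 125 lincRNAs, 18 were called (4 higher, 14 lower), but 51 (43 higher, 8 lower) with library totals without factors. Of the same 125, 9 were called with library sizes from the piRNA cluster table and 46 by the adjusted p alone. With no count filter 1086 were tested and 60 called (32 higher, 28 lower). With 1 library left out 17 to 30 were called, where 30 is without F1-γ replicate 1. The number tested was 113 without an F1-γ library and 125 without an F1-C library. Of the 7 clusters, none was called, but 1 was with the cluster length as an offset, with voom and by the adjusted p alone (the chromosome 6 cluster), and 0 to 1 with 1 library left out, where 1 is the cluster of ENSDART00000194944.1 without F1-γ replicate 1. Of all 171 clusters, 11 were called (4 higher, 7 lower), but 19 with DESeq2 (10 higher, 9 lower), 18 by the adjusted p alone, and 3 to 18 with 1 library left out, where 18 is without F1-γ replicate 1, 5 without F1-γ replicate 3 and 3 without F1-C replicate 3. With upper-quartile normalization 10 were called, 6 higher and 4 lower. The mean log2 ratio of lincRNA to cluster in deposited counts was higher in F1-γ for 7 of the 8 pairs, and on CPM for 6. It was higher for 3 to 8 with 1 library left out, with 3 without F1-C replicate 3. In deposited counts 69.6% of all 125 lincRNAs and 46.2% of all 171 clusters were higher in every F1-γ library. The share of other lincRNA and cluster pairs with a higher ratio was not taken. The cause of the shifts between settings was not tested.

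The sign of small log2 FCs turned under some settings, and none of these values had been called. With library totals it was 0.042 for ENSDART00000194589.1, 0.050 for ENSDART00000194944.1 and 0.27 for ENSDART00000155690.2. For ENSDART00000194155.1 it was -0.0088 with RLE normalization, -0.0087 with DESeq2, -0.054 with the upper quartile and -0.055 to 0.068 with 1 library left out (negative without F1-C replicate 2). For ENSDART00000156468.2 it was -0.042 with the upper quartile and -0.052 to 0.10 with 1 library left out (negative without F1-C replicate 3), and for ENSDART00000150672.2 it was -0.021 with the upper quartile. Among clusters, that of ENSDART00000154375.2 had -0.0027 (without F1-C replicate 1) to 0.33 with 1 library left out, and that of ENSDART00000194155.1 had 0.050 with the upper quartile, 0.0011 with library totals and -0.096 to 0.045 with 1 library left out (positive without F1-C replicate 1). The chromosome 17 cluster, at -0.0014, had 0.014 with RLE and with DESeq2, 0.095 with the upper quartile, 0.047 with library totals, 0.029 with voom, and -0.031 to 0.044 with 1 library left out (positive without F1-γ replicate 2, F1-γ replicate 3 or F1-C replicate 1). The chromosome 25 cluster had -0.059 (without F1-γ replicate 2) to 0.17 with 1 library left out, -0.087 with the length offset and -0.052 with voom.

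Same-numbered libraries did not deviate together (correlations of -0.204 to -0.0924 for lincRNAs and -0.199 to 0.00299 for clusters), which gives no sign of a pairing by number. With 3 libraries a group such correlations cannot exclude a pairing. A replicate block gave 19 lincRNA calls and 6 cluster calls, and ENSDART00000155833.2 alone of the 8. With 3 libraries a group, the exact tests of the ratios could not pass 0.05.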
